A study of Mus musculus with 8 samples.

Results

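A named set of 8 genes of hepatic glucose entry, fructose use and glucose sensing were examined in primary mouse hepatocytes that lacked p16 and in cells of wild type littermates. They are Slc2a2, Gckr, Pklr, Khk, Hk1, Hk2, Pfkfb3 and Txnip, 8 of 22180 genes that the array measured with a row of their own. They were taken by name, each from its 1 row with a single gene symbol, and all 8 passed the filter on dim genes that left 15380 genes for testing. The groups were 4 p16+/+ and 4 p16-/- samples, with 1 array each. Both came from littermates by collagenase perfusion of the liver. All cultures first attached for 16 h in Williams E medium that held 10% serum, insulin at 100 nM and dexamethasone at 25 nM. They then spent 8 h in DMEM with glucose at only 1 mM and with 0.1% albumin, which ended with RNA harvest at 24 h. Every sample was therefore taken in low glucose, so the study holds no high-glucose state to compare with. The sources used here do not give age, sex, strain or the structure of the deleted allele. The sample titles call the replicates biological, but a separate animal behind every sample is not stated. The p-values therefore weigh each group difference only against the spread of these samples. Part of that spread may be technical, so the p-values may not extend to other animals.

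The liver takes up and releases glucose through GLUT2, a low-affinity transporter encoded by Slc2a2. Inside the hepatocyte, glucose is trapped by phosphorylation, which the regulatory protein GKRP (Gckr) restrains when glucose is low, and fructose is phosphorylated by ketohexokinase (Khk). The liver forms of glycolytic enzymes, such as pyruvate kinase L (Pklr), stand beside forms used by most other tissues. Examples of these are hexokinases 1 and 2 (Hk1, Hk2) and pyruvate kinase M (Pkm). Hexose phosphates activate the transcription factors ChREBP (Mlxipl) and MondoA (Mlxip), which bind carbohydrate response elements with their partner Mlx and switch on genes such as Txnip and Pklr.

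A carbohydrate response element is a pair of E-box-like motifs a short distance apart, and the promoters are shown because Txnip and Pklr are textbook examples of genes with such an element. All 8 members had entries in the RefSeq promoter table (GRCm38.p6), 11 in all, each of 300 bases from 250 before to 50 after a transcript start. The motif CACGNG was searched on both strands, followed after 5 bases by its reverse complement CNCGTG (an inverted pair) or by itself again (a direct pair), together with the plain E-box CACGTG. These searches can match the same bases. An inverted pair stood in 0.046% of the 32851 promoters of the table, a direct pair in 0.049% and an E-box in 7.15%. Among the members, Pklr had an inverted pair at positions -170 to -154 of the downstream of its 2 starts, and Txnip a direct pair at -85 to -69. The bases before these starts are shown with the pair in capitals, Pklr from chr3:89136373-89136622 and Txnip from chr3:96557707-96557956, both on the plus strand.
Pklr: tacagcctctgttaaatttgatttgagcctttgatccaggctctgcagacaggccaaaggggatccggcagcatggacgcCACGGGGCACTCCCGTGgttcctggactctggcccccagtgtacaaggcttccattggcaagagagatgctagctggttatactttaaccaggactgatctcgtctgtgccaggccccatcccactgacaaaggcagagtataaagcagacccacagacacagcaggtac
Txnip: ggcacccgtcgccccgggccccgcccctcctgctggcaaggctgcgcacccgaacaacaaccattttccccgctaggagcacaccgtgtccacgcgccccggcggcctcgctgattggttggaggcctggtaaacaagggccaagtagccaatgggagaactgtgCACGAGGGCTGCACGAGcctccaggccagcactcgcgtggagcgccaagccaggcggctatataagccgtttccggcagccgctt

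A plain E-box stood in the windows of Khk, at -71 to -66, and of 1 of the 2 starts of Pfkfb3, at -53 to -48. It also stood in the window of Arrdc4, a gene of the same arrestin family as Txnip that these factors are known to control, at -193 to -188. The E-box is in capitals within 30 bases, for Khk from chr5:30921476-30921505 on the plus strand, for Pfkfb3 from chr2:11502126-11502155 and for Arrdc4 from chr7:68749414-68749443, both on the minus strand. Neither kind of pair nor a plain E-box was found in the windows of Slc2a2, Gckr, Hk1 or Hk2. This says only that these sequences are not there, and a single CACGNG outside a pair can still occur.
Khk: agcgttccccgtCACGTGacaccgttaatc
Pfkfb3: cacccttctctcCACGTGaaagggggctgg
Arrdc4: aaaggtcctgtgCACGTGcactatggtgtc

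The deposited values are log2 intensities after RMA, so a difference of 1 is a 2-fold difference. Levels of different genes come from different probes, so no difference in level between genes is reported. Array medians ran from 3.76 to 3.88, and the correlation of arrays across genes was 0.985 to 0.993 inside the groups and 0.973 to 0.983 across them. The 1 row for Cdkn2a, the gene of p16, ranged from 4.16 to 4.91 over the 8 arrays and the group means differed by 0.0040 (95% interval -0.37 to 0.38, exact permutation p = 1, two-sided). Where its probes lie relative to the deletion is not known, so the row checks nothing about the genotype. Markers of the labelled cell type were bright, and the albumin gene Alb measured 13.54 ± 0.03 on wild type and 13.57 ± 0.01 on knockout arrays (SD, n = 4).

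Markers of other cell types moved on the same arrays. In such bulk samples fewer cells of a type and less RNA per cell cannot be told apart. For scale, 7.02% of all genes tested rose and 6.76% fell (limma, adjusted p under 0.05). The mean over 13 hepatocyte markers was 10.88 to 11.03 on the wild type and 11.43 to 11.55 on the knockout arrays, and 8 of the 13 rose and none fell. The count was 5 without wild type replicate 2, without knockout replicate 1 or without knockout replicate 2. The mean over 13 sinusoidal endothelial markers was 5.93 to 6.11 against 4.77 to 5.02, and 12 fell and 1 rose. Cdh5, the endothelial cadherin, fell by 2.03 (SE 0.09, adjusted p = 4.39e-07), and for Lyve1 the change was -1.72 (SE 0.12, adjusted p = 6.72e-06). Flt1, picked out after its value was known, was the riser. The mean over 12 macrophage markers was 5.22 to 5.31 against 4.41 to 4.51, with 9 of 11 tested lower and 1, Cd68 (0.58), higher. C1qa fell by 0.38 (adjusted p = 0.0287), a call lost in 7 alternatives, 5 of them the removal of an array (wild type replicates 2 to 4, knockout replicate 1, and knockout replicate 2). The mean over 12 stellate cell and fibroblast markers was 5.05 to 5.09 against 4.39 to 4.53, with 6 lower, among them Ecm1 (-0.95), and 1 higher, Reln (0.99). None of the 4 tested cholangiocyte markers, with Sox9 (-0.12) and Krt19 (-0.24) among them, nor of the 2 tested lymphocyte markers, Nkg7 (0.06) and Cd3e (-0.06), nor the erythroid gene Slc4a1 (-0.15) passed. Among the hepatocyte markers Alb had a change of 0.03 and Ttr one of 0.19 (adjusted p = 0.165), which passed with an intensity trend (0.0121). The part of these shifts in the changes of Slc2a2, Khk, Hk1, Pfkfb3, Gckr, Txnip and the pathway genes was not tested.

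**Figure D1:**
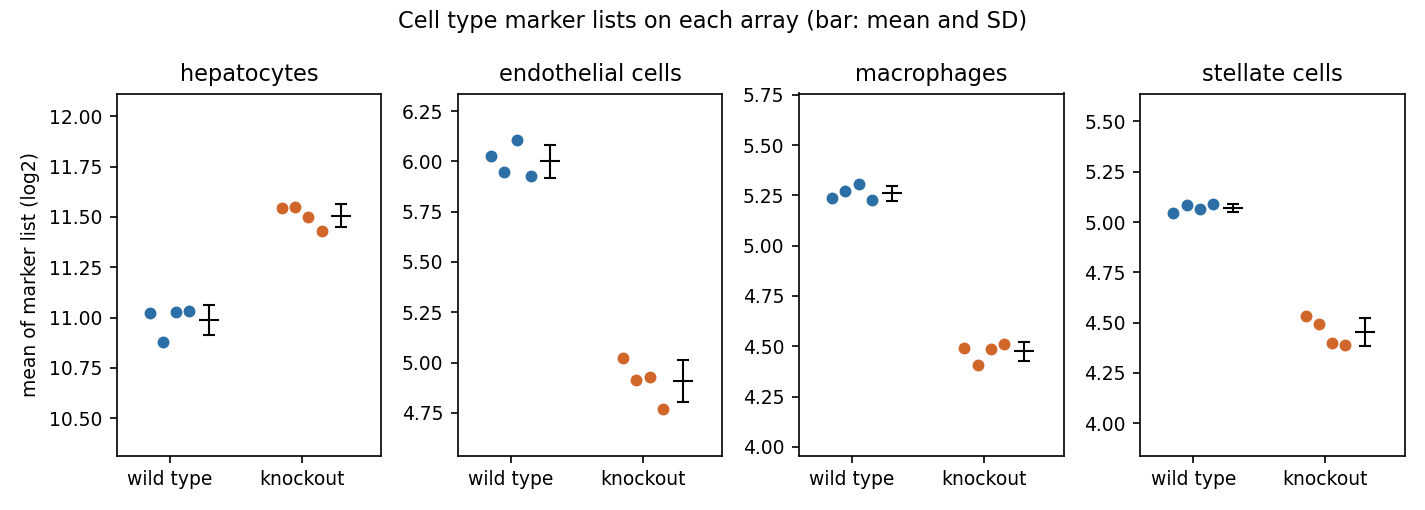
Mean log2 value of 4 cell type marker lists on each array, wild type in blue and knockout in orange, with the mean and SD as a black bar. Hepatocyte markers lie higher (11.43 to 11.55 against 10.88 to 11.03) and endothelial, macrophage and stellate markers lower on all 4 knockout arrays.

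Of the 8 members, 4 rose in the knockout (Slc2a2, Khk, Pfkfb3, Hk1), 2 fell (Txnip, Gckr), and Pklr and Hk2 did not pass the test (limma, p adjusted over all 15380 genes, threshold 0.05). Over all genes tested, 13.8% passed, 7.02% upward and 6.76% downward. Groups did not overlap for 6 of the 8 members and for 20.2% of all genes tested. Changes ran from -0.61 to 1.26 on the log2 scale, with a median of 0.45 over the members against -0.02 over all genes tested. The rises reached 2-fold for Slc2a2 and Khk.

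**Figure D2:**
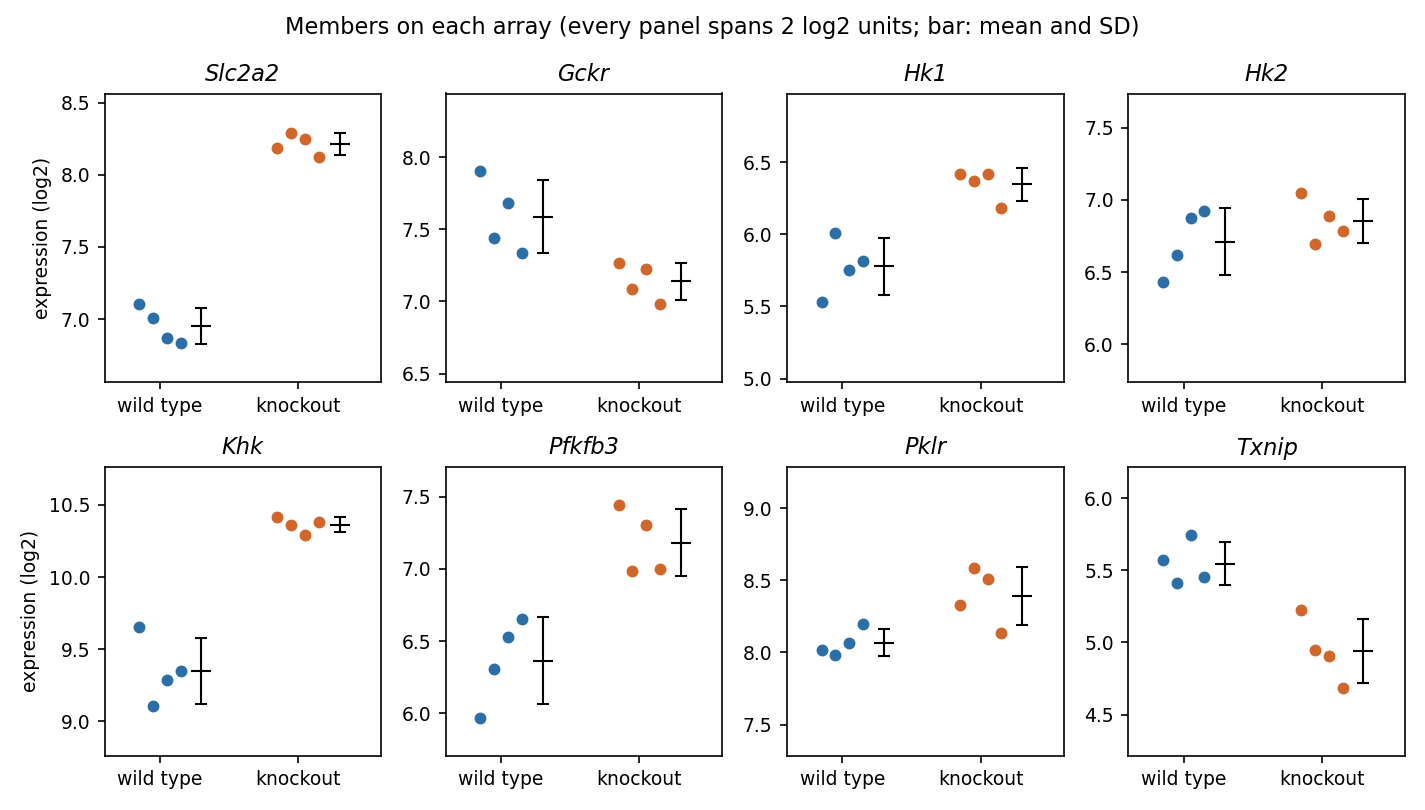
Log2 expression of the 8 members on each array, wild type in blue and knockout in orange, with replicates 1 to 4 from left to right and the mean and SD as a black bar. Slc2a2, Khk, Hk1 and Pfkfb3 lie higher and Gckr and Txnip lower on all 4 knockout arrays than on any wild type array, while the groups overlap for Hk2 and Pklr.

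Slc2a2, the gene of the glucose transporter of hepatocyte membranes, had the largest change among the members. Wild type replicates 1 to 4 measured 7.11, 7.01, 6.87 and 6.84 on the log2 scale and knockout replicates 1 to 4 measured 8.19, 8.29, 8.25 and 8.12. Every knockout array lay more than a full log2 unit above the highest wild type array, and the spread within each group was small. The means were 6.95 ± 0.13 and 8.21 ± 0.07 (SD, n = 4), a rise of 2.39-fold (log2 change 1.26, 95% interval 1.05 to 1.46, limma adjusted p = 9.19e-06). Of the other 9 glucose transporter genes tested, 1 passed. This was Slc2a1, which encodes the widely expressed transporter GLUT1 and rose from 10.93 ± 0.21 to 11.34 ± 0.09 (log2 change 0.41, SE 0.11, adjusted p = 0.0317). Slc2a1 no longer passed in 7 alternatives (adjusted p 0.0582 to 0.0940): with no filter on dim genes, with the mean of its rows, and without wild type replicate 1 or 2 or any of knockout replicates 1 to 3. Slc2a8, a transporter of intracellular membranes, had a change of 0.34 (SE 0.14, adjusted p = 0.131).

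Gckr, the gene of a nuclear regulatory protein that restrains glucose phosphorylation, moved the opposite way. Wild type arrays measured 7.90, 7.44, 7.68 and 7.33, and knockout arrays 7.27, 7.08, 7.22 and 6.98. The groups did not overlap, but the highest knockout array lay just under the lowest wild type array. The mean fell from 7.59 ± 0.25 to 7.14 ± 0.13 (log2 change -0.45, 95% interval -0.73 to -0.16, limma adjusted p = 0.0415). This call is close to the threshold. It ended without each array in turn except wild type replicate 4 (adjusted p 0.0513 to 0.109), and with no filter on dim genes (0.0733), a 20th percentile filter (0.0596) or median centring (0.0756).

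Hk1, which encodes the hexokinase of most tissues, measured 5.53, 6.01, 5.75 and 5.81 on the wild type arrays and 6.42, 6.37, 6.41 and 6.18 on the knockout arrays. All 4 knockout arrays were above all wild type arrays, with knockout replicate 4 the nearest to them. The mean rose from 5.78 ± 0.20 to 6.34 ± 0.11, or 1.48-fold (log2 change 0.57, 95% interval 0.32 to 0.82, limma adjusted p = 0.00649). Hk2, the insulin- and hypoxia-responsive hexokinase of muscle and fat, measured 6.43, 6.62, 6.88 and 6.92 in wild type and 7.05, 6.69, 6.89 and 6.78 in knockout cells. Its groups overlapped, and the difference of 0.14 had an interval from -0.14 to 0.42 (adjusted p = 0.539). The other hexokinases of the list, Hk3 of leukocytes and the related Hkdc1, named after their values were seen, had changes of -0.07 (adjusted p = 0.779) and 0.13 (adjusted p = 0.734).

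The genes that work against these kinases were on the same list of hexokinases and the glucose 6-phosphate cycle. Of its 8 tested genes beside the members, 2 rose and none fell. Slc37a4, which carries glucose 6-phosphate into the endoplasmic reticulum, rose by 1.20 (SE 0.11, adjusted p = 3.66e-05), and G6pc, the catalytic subunit of glucose 6-phosphatase that frees glucose there, rose by 0.92 (SE 0.11, adjusted p = 1.90e-04). The median over the 11 tested genes of the list, members included, was 0.10.

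Khk, whose enzyme phosphorylates fructose at the entry to its breakdown, measured 9.65, 9.11, 9.28 and 9.35 on the wild type arrays and 10.42, 10.36, 10.29 and 10.38 on the knockout arrays. The groups were clearly apart, the knockout arrays lay close together and wild type replicate 1 was the highest of its group. The mean rose from 9.35 ± 0.23 to 10.36 ± 0.05, or 2.02-fold (log2 change 1.02, 95% interval 0.76 to 1.27, limma adjusted p = 1.65e-04). It was the only gene of its list to pass: none of the other 7 tested genes of fructose and polyol metabolism did. Tkfc, the triokinase of fructose breakdown that was named after its value was seen, had a change of 0.17 (SE 0.11, adjusted p = 0.369), and Aldh2, an aldehyde dehydrogenase, one of 0.19 (SE 0.11, adjusted p = 0.297). Without wild type replicate 2, Slc2a8 of this list also passed (0.45, adjusted p = 0.0470). The genes Khk and Gckr lie 366 kb apart on chromosome 5 (GRCm38.p6), at 30921436 to 30931248 and 31297266 to 31327302, and changed in opposite directions.

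Pfkfb3 encodes the form of the bifunctional enzyme with high kinase activity, which raises fructose 2,6-bisphosphate and thereby phosphofructokinase activity. Wild type arrays measured 5.97, 6.31, 6.53 and 6.65 and knockout arrays 7.44, 6.98, 7.30 and 6.998. It had the widest spread among the members in both groups, but the groups did not overlap. The mean rose from 6.36 ± 0.30 to 7.18 ± 0.23, or 1.76-fold (log2 change 0.82, 95% interval 0.47 to 1.17, limma adjusted p = 0.00555). On the list for control of fructose 2,6-bisphosphate, 2 of the other 5 tested genes rose. Pfkfb2, a form regulated by insulin-dependent phosphorylation, rose by 1.14 (SE 0.09, adjusted p = 1.51e-05). Fbp1, the gluconeogenic fructose 1,6-bisphosphatase that the same metabolite inhibits, rose by 1.04 (SE 0.09, adjusted p = 2.51e-05). Pfkfb1, the form known from liver, had no row of its own and was not analysed here. Genes of the activating and of the opposing enzyme were therefore higher on the same arrays.

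Pklr, which encodes the last enzyme of glycolysis in the liver, measured 8.02, 7.98, 8.07 and 8.20 in wild type and 8.33, 8.59, 8.51 and 8.13 in knockout cells. Knockout replicate 4 lay within the wild type range and the other knockout arrays above it. The difference of 0.32 between means of 8.07 ± 0.09 and 8.39 ± 0.20 had an interval from 0.08 to 0.57 and did not pass over all genes (limma adjusted p = 0.0822). Without knockout replicate 4 it was 0.41 and passed (adjusted p = 0.0203), as it did with cyclic loess (0.0365), an intensity trend (0.0327) or array weights (0.0190).

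The list of glycolytic enzymes also holds genes of pyruvate dehydrogenase and its kinases. Of its 18 tested genes beside Pklr, 5 rose and none fell. Pdk2, which encodes a kinase that shuts off pyruvate dehydrogenase, rose by 1.25 (SE 0.13, adjusted p = 7.38e-05). The phosphofructokinase genes of liver and platelet type, Pfkl and Pfkp, rose by 0.53 (SE 0.11, adjusted p = 0.00715) and 0.51 (SE 0.12, adjusted p = 0.0145). They were the only risers of the list that encode enzymes of glycolysis itself. The remaining risers, Pdk4 (0.47, adjusted p = 0.0340) and Pdk1 (0.35, adjusted p = 0.0415), encode kinases of the same family as Pdk2 and were named after their values were seen. Pdk4 lost its call in 6 alternatives (no filter on dim genes, and without wild type replicate 1, 2 or 3, knockout replicate 1, or knockout replicate 3). Pdk1 lost it in 10, among them the removal of any array but wild type replicates 3 and 4. The list had 3 called genes in place of 5 with no filter, and also on leaving out wild type replicate 1, wild type replicate 2, knockout replicate 1, or knockout replicate 3.

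Txnip encodes thioredoxin-interacting protein, an arrestin-like protein that promotes the removal of glucose transporters from the membrane and whose gene is a known target of the glucose sensors. Wild type arrays measured 5.57, 5.41, 5.75 and 5.45, and knockout arrays 5.23, 4.94, 4.90 and 4.68. Every knockout array lay below every wild type array. The mean fell from 5.55 ± 0.15 to 4.94 ± 0.22, or 1.52-fold (log2 change -0.61, 95% interval -0.88 to -0.33, limma adjusted p = 0.00769). Its relatives Arrdc3 and Arrdc4, named after their values were seen, changed the other way. Arrdc3 rose by 0.86 (SE 0.12, adjusted p = 9.27e-04). Arrdc4 rose by 0.34 (SE 0.09, adjusted p = 0.0300), from 6.11, 6.20, 6.03 and 6.001 to 6.34, 6.32, 6.55 and 6.48. Arrdc4 no longer passed in 8 alternatives (adjusted p 0.0501 to 0.0797), among them the removal of wild type replicate 1, 3 or 4, of knockout replicate 1, or of knockout replicate 3.

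The genes of the sensors themselves did not pass the test. Mlxipl had a change of 0.04 (SE 0.13, adjusted p = 0.882), Mlxip one of -0.03 (SE 0.09, adjusted p = 0.893) and their partner Mlx one of -0.09 (SE 0.10, adjusted p = 0.606), all named after their values were seen. Of the 29 tested genes beside the members on the list of sensing factors and known ChREBP targets, 8 rose, 2 fell and 19 did not pass. Among the risers were the desaturase gene Scd1 (1.19, SE 0.09, adjusted p = 9.79e-06), the lipogenic regulator Thrsp (1.00, SE 0.10, adjusted p = 5.68e-05) and G6pc. The other risers beside Arrdc3 and Arrdc4, named after their values were known, were Rgs16 (0.96, adjusted p = 1.52e-04), Acacb of the mitochondrial acetyl-CoA carboxylase (0.86, adjusted p = 0.00163) and Tm6sf2, which acts in lipid secretion (0.69, adjusted p = 0.00154). The falls were those of Mid1ip1, an activator of acetyl-CoA carboxylase (-0.45, SE 0.08, adjusted p = 0.00395), and Max, a partner of Myc (-0.36, SE 0.09, adjusted p = 0.0276). The Mid1ip1 call ended with the mean of its rows (-0.26, adjusted p = 0.0841). Max no longer passed in 6 alternatives (adjusted p 0.0543 to 0.0757), among them the removal of wild type replicates 1, 2 and 3 in turn and of knockout replicate 3. Klf10, a target that represses further transcription and was named after its value was seen, differed by -0.44 (SE 0.14, adjusted p = 0.0626). It passed without knockout replicate 3 (-0.54, adjusted p = 0.0244), with a 60th percentile filter (0.0380), with an intensity trend (0.0392) and with quantile normalization (0.0430). The median over the 34 tested genes of the list, members included, was 0.06.

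**Figure D3:**
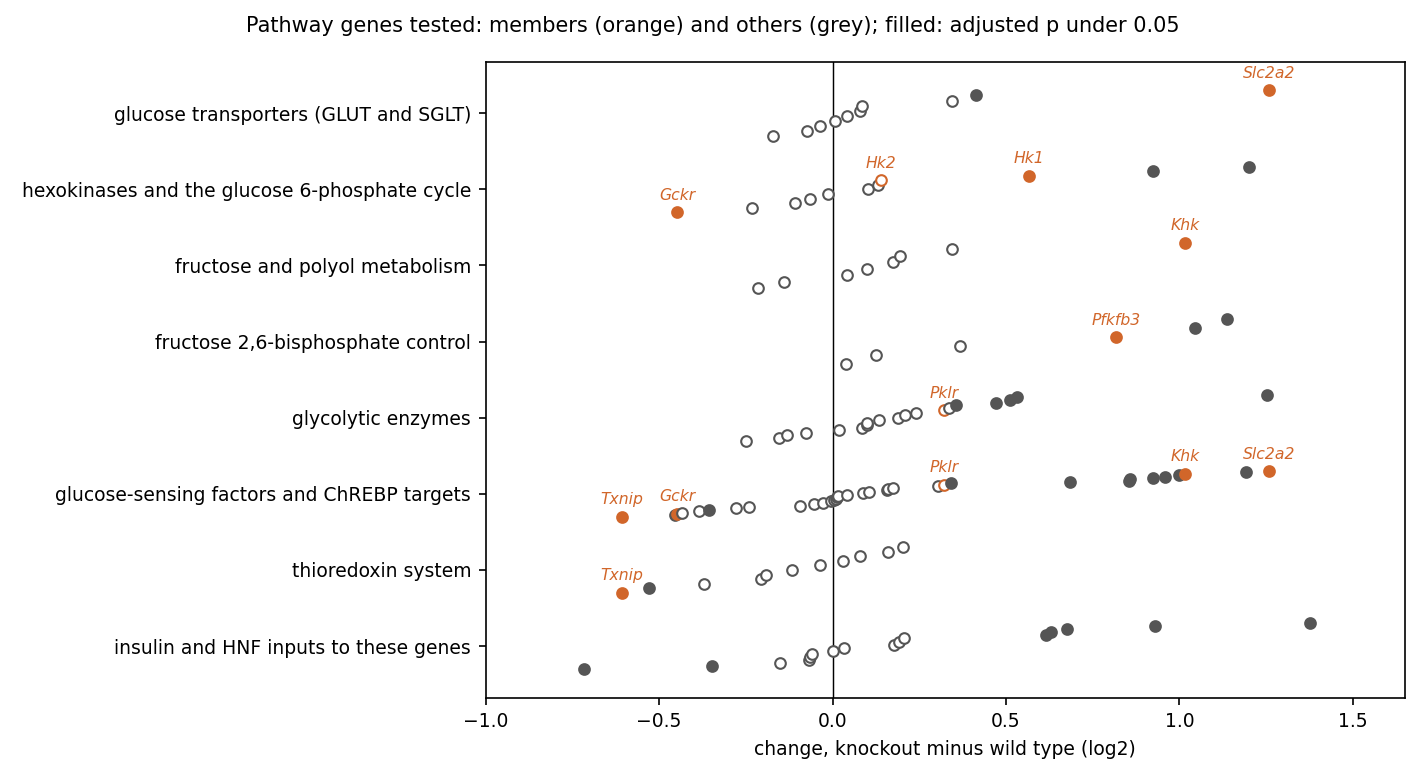
Log2 change, knockout minus wild type, of every tested gene on the 8 pathway lists, with members in orange and the other genes in grey, filled where the adjusted p is under 0.05. The members lie between -0.61 (Txnip) and 1.26 (Slc2a2), and the sensing list has called genes on both sides of 0.

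Txnip protein binds thioredoxin, and of the 10 other genes tested on the thioredoxin list 1 passed. Txnrd1, which encodes cytosolic thioredoxin reductase, fell by 0.53 (SE 0.09, adjusted p = 0.00208), and Txn1, thioredoxin itself, had a change of -0.21 (SE 0.09, adjusted p = 0.170). On the list of insulin and HNF inputs, 5 of 16 tested genes rose and 2 fell. Irs2, an insulin receptor substrate that rises in fasting liver, rose by 1.38 (SE 0.22, adjusted p = 0.00171), Hnf4a, a nuclear receptor of hepatocyte identity, by 0.93 (SE 0.12, adjusted p = 3.41e-04), and Foxo1, which insulin keeps out of the nucleus, by 0.68 (SE 0.12, adjusted p = 0.00289). Foxa3 (0.63, adjusted p = 0.00624) and the hypoxia-inducible factor gene Epas1 (0.61, adjusted p = 0.0103) also rose and were chosen after seeing their values. Myc, which activates hexokinase and GLUT1 genes in growing cells, fell by 0.72 (SE 0.10, adjusted p = 9.68e-04), and Pik3r1, the regulatory subunit of phosphoinositide 3-kinase, fell by 0.35 (SE 0.09, adjusted p = 0.0317). Pik3r1 no longer passed in 8 alternatives (adjusted p 0.0554 to 0.0975), 6 of them the removal of an array other than wild type replicates 2 and 4. Across the 8 lists, 98 genes beside the members were tested, and 22 rose and 5 fell, which is 27.6% against 13.8% of all genes tested. The lists were chosen with earlier results of these data known, so the larger share is a description only.

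Whether liver forms changed more than the forms of other tissues was asked within each array, where the log2 value of the other form was subtracted from that of the liver form. The result is a difference of changes and says nothing about which form is more abundant. Of 7 pairs set, 3 had both genes on the array. Slc2a2 minus Slc2a1 measured -3.71, -3.69, -4.17 and -4.32 in wild type and -3.27, -2.98, -3.12 and -3.15 in knockout cells. The groups did not overlap, and Slc2a2 had risen more than Slc2a1 by 0.84 on the log2 scale (exact permutation p = 0.0286, two-sided, 0.0429 adjusted over the 3 pairs). With 4 arrays in each group no smaller p can be reached. Pklr minus Pkm measured -2.47, -2.54, -2.62 and -2.66 in wild type and -2.11, -2.001, -2.08 and -2.29 in knockout cells. These groups did not overlap either, with a difference of 0.45 (exact permutation p = 0.0286, adjusted 0.0429). It was made of a change of 0.32 in Pklr and of -0.13 in Pkm (adjusted p = 0.474 in the fit over all genes), neither of which passed on its own. Pfkl minus Pfkp had the difference 0.02 between overlapping groups (exact permutation p = 0.800, adjusted 0.800), since both genes rose by about the same amount. Among the members themselves, the liver genes Slc2a2 (1.26), Khk (1.02), Pklr (0.32) and Gckr (-0.45) and the widely expressed genes Pfkfb3 (0.82), Hk1 (0.57), Hk2 (0.14) and Txnip (-0.61) spanned like ranges, and each set held changes in both directions.

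**Figure D4:**
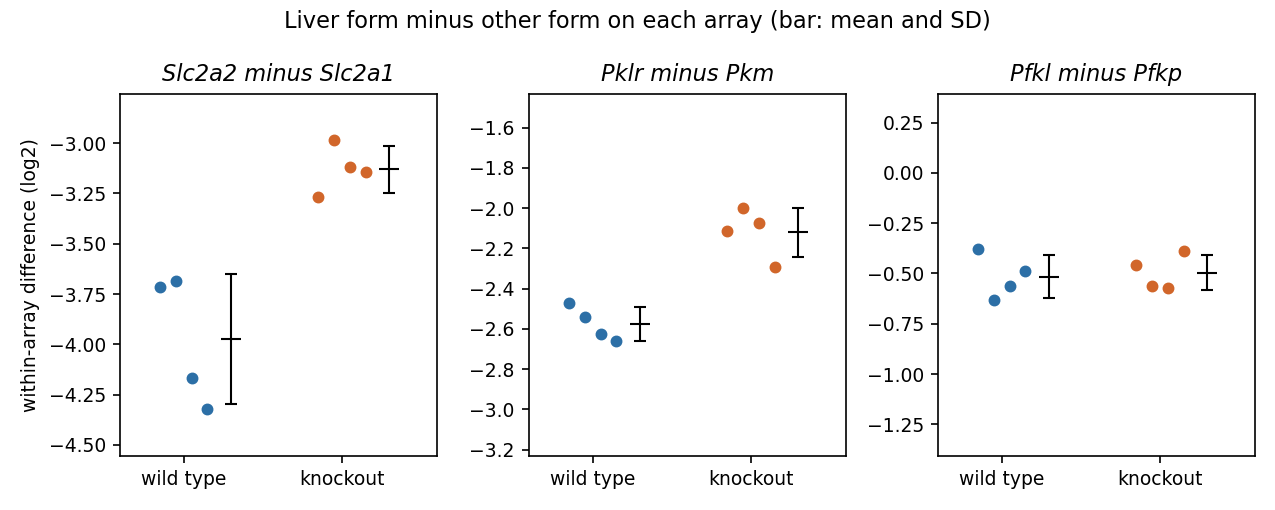
Difference in log2 value between a liver form and the form of other tissues on each array, wild type in blue and knockout in orange, with the mean and SD as a black bar. The groups are apart for Slc2a2 minus Slc2a1 and for Pklr minus Pkm, and overlap for Pfkl minus Pfkp.

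Within a group, some arrays ranked low or high for several members. Knockout replicate 4 was the lowest knockout array for 5 of the 8 members (Slc2a2, Gckr, Pklr, Hk1, Txnip) and the highest for none, and knockout replicate 1 was the highest for 6. Within-group standard deviations of the members ran from 0.05 to 0.30, and 6 members varied less in the knockout than in the wild type, the exceptions being Pklr and Txnip. The same was not counted over all genes tested, so these counts describe the members only.

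The genes with the most similar profiles were found by the root mean square difference over the 8 arrays, each gene centred on its own mean, among 13806 other tested genes, leaving out provisional gene models and small RNAs. For Slc2a2 they were Gamt, which makes creatine (difference 0.0853), and Haao of tryptophan breakdown (0.0893). For Khk they were the cytochrome P450 genes Cyp2j5 (0.0949) and Cyp3a11 (0.106), and for Hk1 the histone methyltransferase gene Dot1l (0.0304) and the carbonic anhydrase gene Car2 (0.0836). Pfkfb3 was closest to Igfbp1, which encodes a liver protein that binds insulin-like growth factors (0.115), and to Tgm1 (0.117). Txnip was closest to Zc3h7b (0.0821) and to the AMP deaminase gene Ampd3 (0.0884), and Gckr to Smyd3 (0.0567) and Mlh3 (0.0658). Pklr was closest to Mysm1 (0.0488) and Larp4b (0.0587), and Hk2 to Crhr2 (0.0770) and Pdk3 (0.0850). With 8 arrays and so many genes, close profiles are a description only.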

How the data were processed

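Total RNA of 8 hepatocyte cultures was hybridised to 1 array each. The deposited table holds log2 expression values for 41345 rows, made by the authors with RMA through the oligo package, per the submitters' processing notes, which give no versions for them here. RMA forces the arrays to 1 distribution, which removes a change shared by all genes and compresses changes of dim ones. Arrays have no read depth, and 4 arrays per group limit the precision. Of the rows, 23521 had 1 symbol in the platform annotation, 1814 several and 16010 none. Per gene the row of highest mean was kept, and genes with a mean above the 40th percentile of rows (3.32) were tested. The 4 knockout and 4 wild type arrays were set against each other in limma 3.58.1 under R 4.3.3 (lmFit, eBayes, two-sided, Benjamini-Hochberg over 15380 genes, threshold 0.05, 6 residual and 5.05 prior degrees of freedom), tested on simulated data. Isoform pairs were compared with an exact permutation test over 70 arrangements in Python 3.11.15. Members, lists, pairs and motifs were chosen with earlier results of these data known. The text names the members, the pairs, up to 3 called genes per list and direction (if fewer than 3 were called, also the uncalled ones of smallest p), the 2 markers of highest mean signal per cell type and the 2 nearest profiles per member; any other gene is marked in the text as picked once its values were known. Of 121 further listed genes, 19 had no row of their own. Alternatives were other filters, row rules, normalizations, variance models, weights per array, a replicate block, and the removal of each array in turn.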

Additional observations from a re-analysis of the deposited data

Results flagged for a closer look

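In 154 groups of 4 arrays, those of 77 genes named in the text, 10 had 1 array far from the rest, where chance alone gives about 1 in 20. None was a member of the glucose entry, fructose and sensing set. Knockout replicate 4 was low for Pik3r1 (8.67 against 8.83 to 8.86), Dot1l (9.37 against 9.62 to 9.67) and Rgs16 (5.86 against 6.18 to 6.22). Knockout replicate 1 was low for Ttr (12.95 against 12.98) and Pdk1 (7.89 against 7.99 to 8.01), and high for Cyp2j5 (9.32 against 9.24) and Crhr2 (4.25 against 3.84 to 3.89). Wild type replicate 2 was low for Aldh2 (10.26 against 10.45 to 10.47) and Lyve1 (7.90 against 8.09 to 8.12), and wild type replicate 1 was high for Txnrd1 (10.79 against 10.63 to 10.64).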

How the results depend on the processing

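Gene changes and counts of called genes were recomputed under 11 other settings and without each of the 8 arrays. The isoform pairs had 12 alternatives, and Hk3, Cd3e and Crhr2, left out by the 60th percentile filter, had 18. Those of the cell type markers, Flt1 and Cdkn2a were added after the data were seen. The changes of Slc2a2 (1.22 to 1.31), Khk (0.94 to 1.12), Hk1 (0.48 to 0.65), Pfkfb3 (0.69 to 0.92) and Txnip (-0.70 to -0.52) kept their direction and their call in all of them, and Hk2 (0.05 to 0.21) passed in none. Between 5 and 7 members passed, and 1448 to 2615 genes in all against 2119. Gckr lost its call with no filter on dim genes or a 20th percentile filter (-0.45 for each) and with median centring (-0.44), and ranged from -0.53 to -0.34 with an array left out. Pklr passed with cyclic loess (0.35), an intensity trend (0.32) and array weights (0.39), and ranged from 0.26 to 0.41 with an array left out. With no filter or with rows averaged per gene 1 glucose transporter gene passed, and with no filter 3 genes of the glycolytic list. With an array left out these counts were 1 to 2 and 3 to 5, and for fructose genes 1 to 2. Called markers numbered 6 for macrophages and 4 for stellate cells with the 60th percentile filter, and 5 to 8 for hepatocytes with an array left out. That filter also took dim markers of the macrophage and stellate lists out of the test. The difference between Pfkl and Pfkp ran from -0.0191 to 0.0647 with an array left out. Without 1 array the uncalled changes of Cdkn2a (-0.12 to 0.0932), Mlxipl (-0.0365 to 0.14), Mlxip (-0.0682 to 0.0242), Hkdc1 (-0.0742 to 0.25), Hk3 (-0.13 to 0.0474), Nkg7 (-0.0503 to 0.18) and Cd3e (-0.13 to 0.0225) changed sign, as did Cdkn2a (-0.0181), Mlxip (0.0137) and Nkg7 (-1.17e-04) with array weights. The causes were not tested. The replicate number is not stated to mark a pair, so it was left out of the main fit. Samples with the same number correlated in their deviations from group means at 0.02 to 0.26, where 0.1 was set as needed. Of the 8 arrays, 4 correlated best with their own number. These values do not decide whether the numbers mark pairs. With the number as a replicate block 2215 genes and 6 members passed, Gckr among them (adjusted p = 0.0157). The sign-flip test of the blocked pairs cannot go below 0.125.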
